A study of Mus musculus with 12 samples.

Results

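The comparison described here set 3 arrays of macrophages given both added salt and bacterial lipopolysaccharide against 3 arrays of macrophages given neither, 6 of the 12 arrays of the series. All arrays carried RNA of RAW264.7 cells, a virus-transformed mouse macrophage line that is a single established line and not primary tissue, taken at 24 h. The 4 groups, each with 3 arrays, are NS (no added NaCl, no LPS), HS (40 mM added NaCl), NS+LPS (10 ng/ml LPS, the lipopolysaccharide of Gram-negative bacteria) and HS+LPS (both agents at those doses). The labels do not spell out NS and HS. NS is used here for the condition without added NaCl. Members were chosen by the array titles HS+LPS and NS alone, with no measured value. Nothing in the labels says whether the 3 replicates of a group came from separate cultures, so every p-value rests on array-to-array spread that may be technical. The 3 HS+LPS arrays were hybridised on 1 slide and scanned on another day than the NS arrays, so slide, scan day and treatment cannot be told apart.

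Cells in a salty medium lose water and rebuild their volume by importing or making compatible osmolytes, small organic molecules such as betaine, myo-inositol and sorbitol. The transcription factor NFAT5 drives the genes for this by binding tonicity elements in DNA. LPS is sensed by TLR4 with its partners CD14 and MD-2, and the adaptors MyD88 and TRIF carry the signal to NF-kB, which acts on cytokine and chemokine genes, and to interferon beta, whose autocrine loop acts on antiviral genes through interferon-stimulated response elements (ISREs). After both stimuli a macrophage carries a net state of these programs, and the comparison asks what that state is against resting cells.

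The DNA just before the start of 6 genes is shown, chosen as examples of the 3 programs: Isg15 and Ifit3 for interferon, Cxcl2 and Il6 for NF-kB, Cxcl10 for both and Slc6a12 for tonicity. Sequences are from RefSeq on GRCm38.p6, on the strand of the gene, end at the last base before the start, and capitals mark matches to the motif named in brackets.
Isg15 (ISRE, chr4:156200819-156200908, minus strand): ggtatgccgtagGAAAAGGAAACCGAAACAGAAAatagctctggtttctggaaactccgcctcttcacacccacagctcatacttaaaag
Ifit3 (ISRE, chr19:34583359-34583528, plus strand): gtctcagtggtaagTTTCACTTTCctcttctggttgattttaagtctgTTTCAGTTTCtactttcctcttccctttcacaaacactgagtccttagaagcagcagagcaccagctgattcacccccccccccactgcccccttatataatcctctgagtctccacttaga
Cxcl10 (NF-kB motif and ISRE, chr5:92348890-92349119, minus strand): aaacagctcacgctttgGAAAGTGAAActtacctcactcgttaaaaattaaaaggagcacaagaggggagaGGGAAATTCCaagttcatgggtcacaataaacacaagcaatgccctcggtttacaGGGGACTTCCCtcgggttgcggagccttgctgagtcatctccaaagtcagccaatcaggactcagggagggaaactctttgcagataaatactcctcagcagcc
Cxcl2 (NF-kB motif, chr5:90903789-90903898, plus strand): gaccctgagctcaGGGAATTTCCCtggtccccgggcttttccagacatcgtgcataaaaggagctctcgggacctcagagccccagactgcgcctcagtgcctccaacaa
Il6 (NF-kB motif, chr5:30013054-30013113, plus strand): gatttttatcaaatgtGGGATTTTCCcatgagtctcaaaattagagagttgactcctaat
Slc6a12 (tonicity element, chr6:121342484-121342573, plus strand): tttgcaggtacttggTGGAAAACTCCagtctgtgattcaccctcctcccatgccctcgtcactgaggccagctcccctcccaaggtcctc
Motifs were searched on both strands in the 250 bases before the start, the ISRE as 2 copies of GAAA parted by any 2 bases, and the NF-kB motif and tonicity element by their usual consensus. No match of 1 motif overlapped a match of another in these 6 promoters. The search also found 1 tonicity element in the Cxcl2 promoter and 1 NF-kB motif in the Slc6a12 promoter, neither set in capitals. The ISRE letters stood in 3.0% of 32851 promoters, 3.3% of matched tested genes, 19.7% of the 137 matched genes called higher by at least 8-fold in HS+LPS, 10.3% of the 29 called lower by at least 8-fold, and 44.4% of 36 matched interferon-stimulated genes. The NF-kB motif stood in 7.3% of all promoters, 10.4% of 10430 matched tested genes (a gene with several promoters counts once), 38.9% of 18 matched cytokine genes and 3 of 7 matched chemokine genes. The tonicity element stood in 4.3% of all promoters 2 of 10 matched osmolyte genes and 2 of 7 matched chemokine genes. A match is a description of the letters and not of binding.

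Levels, called scaled signal below, are processed signals on the log2 scale from which each array's 75th percentile over non-control spots was subtracted, so every difference is relative to that percentile. Before scaling, the percentile was 724.8 ± 74.0 (SD, n = 3) in NS and 428 ± 15.3 in HS+LPS, and 50.1 ± 0.60% of NS probes and 44.2 ± 0.53% of HS+LPS probes were well above background. Control RNA spiked in at labelling behaved otherwise. For the 7 of 10 spike-in probes above background on all 6 arrays, the unscaled signal of HS+LPS differed from NS by a median of -0.02 on the log2 scale (range -0.14 to 0.07), while the percentile differed by -0.75. After scaling, the spike-ins therefore stood 0.73 higher in HS+LPS (0.62 to 0.82). Scaled to the spike-ins instead, the median of all genes moves by -0.73 and each HS+LPS minus NS difference below is lower by that amount. HS minus NS and NS+LPS minus NS move less, since these spike-ins differed there by 0.051 to 0.095 and 0.005 to 0.075 after scaling. Interactions include the HS+LPS arrays and would also be lower, by an amount not computed here. Less labelled cell RNA per spike-in, slide and scan day cannot be told apart, and in bulk samples neither can fewer cells and less RNA per cell. Correlations across probes were 0.9961 to 0.9986 between replicates and 0.9549 to 0.9573 between NS and HS+LPS arrays.

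**Figure D1:**
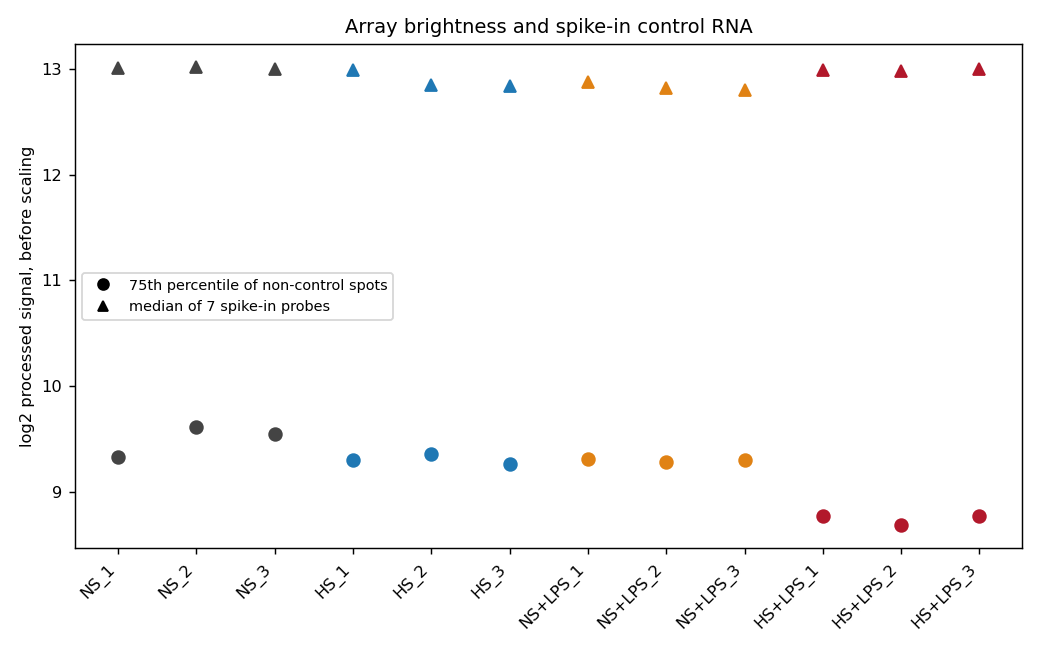
Unscaled log2 processed signal on each of the 12 arrays, as the 75th percentile over non-control spots (circles) and the median of 7 spike-in probes (triangles), coloured by group. The circles of the 3 HS+LPS arrays are the lowest, while their triangles lie at 12.98 to 13.00 beside 13.00 to 13.02 on the NS arrays.

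Of 13844 genes tested with limma, 71.8% were called at a Benjamini-Hochberg adjusted p under 0.05, 4331 higher and 5615 lower in HS+LPS than in NS. The share of genes called higher was 31.3% and lower 40.6%, the shares to hold beside each list count below that is not from spike-in scaling. In 1099 higher (7.94%) and 1047 lower (7.56%) genes the difference was at least 2-fold. The arrays of the groups did not overlap for 74.9% of genes. With spike-in scaling, chosen after seeing the data, the split turned to 1091 higher and 11262 lower, and with cyclic loess normalization to 5092 higher and 4677 lower. List counts given with spike-in scaling are to be held beside the spike-in split of all 13844 genes. In it 8.83% of calls were higher and the median of all genes was -0.82. Changes of at least 8-fold were mostly rises, in 195 genes against 41 falls. The median difference over all genes was -0.09. For comparison, 37% of genes were called in HS against NS and 63.8% in NS+LPS against NS. These comparisons share the NS arrays, so their values for a gene are set side by side below and not correlated. "HS alone" and "LPS alone" below mean HS minus NS and NS+LPS minus NS.

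**Figure D2:**
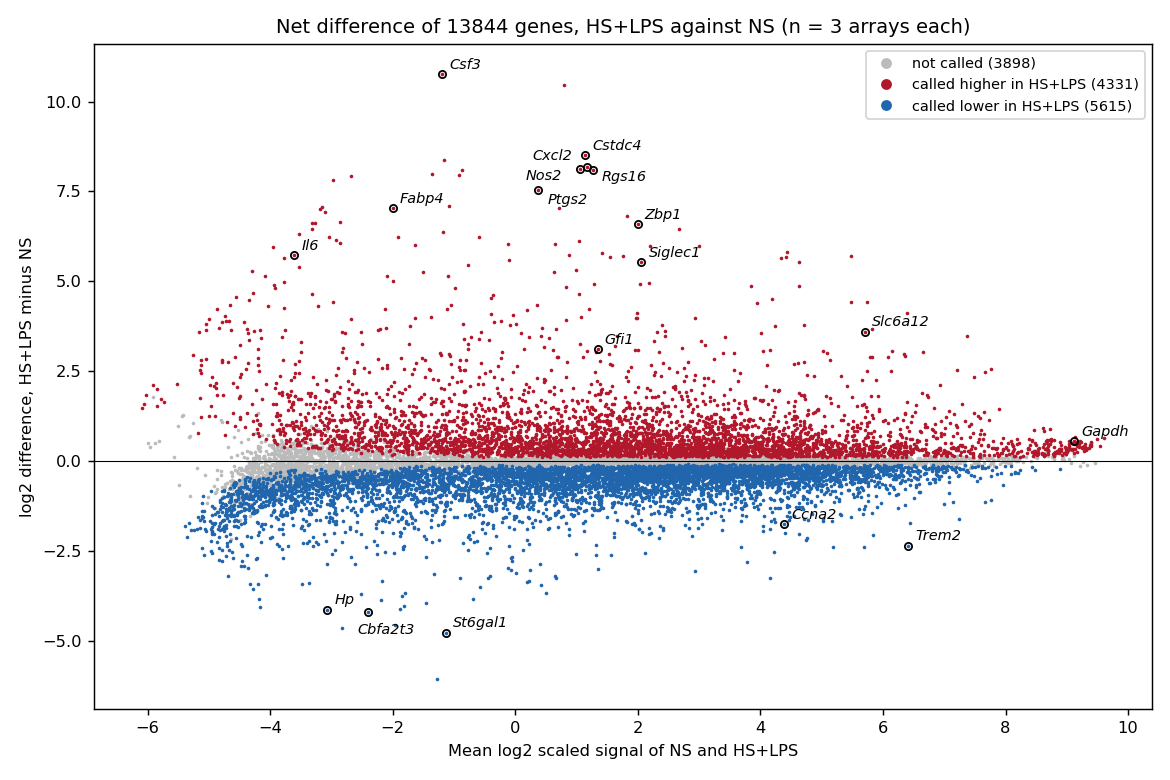
The log2 difference HS+LPS minus NS of each of 13844 genes against its mean log2 scaled signal in both groups, with 4331 genes called higher in red, 5615 called lower in blue and the rest in grey. Rises reach farther than falls, from Cstdc4 at 8.51 to St6gal1 at -4.79 among named genes above background in both groups, and dim genes at the left include ones not well above background in 1 group, whose differences are not bounds.

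The tonicity program was raised in the net state. Of 14 genes for osmolyte accumulation and tonicity, all of which passed the filter, 11 were called higher, 1 lower and 2 were not called, and 9 of the rises were at least 2-fold. Their median difference was 1.57 beside -0.09 for all genes, and 0.49 in HS alone and 0.31 in LPS alone. With spike-in scaling 9 were called higher and 4 lower. The betaine transporter Slc6a12 read 3.99, 3.75 and 3.97 on the NS arrays and 7.54, 7.37 and 7.58 on the HS+LPS arrays. All 3 HS+LPS arrays lay far above all NS arrays, a 12.1-fold difference (log2 3.60, SE 0.14, adjusted p = 4.43e-09; probe on chromosome 6, 121315541 to 121315600, mm9). Slc6a12 differed by 2.74 in HS alone and by 0.28 in LPS alone, where it was not called. Akr1b3, the aldose reductase that makes sorbitol, read 6.48, 6.44 and 6.35 in NS and 8.89, 8.78 and 9.01 in HS+LPS, with no overlap. Its rise was 5.53-fold (2.47, SE 0.14), against 1.10 in HS alone and 0.14, not called, in LPS alone. The interaction, the salt difference with LPS minus that without, was 1.22 for Akr1b3 (adjusted p = 0.0011).

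Other osmolyte genes differed in which single treatment they followed. Slc5a3, the myo-inositol transporter, rose from 0.76, 0.47 and 0.47 to 2.54, 2.37 and 2.63, by 1.95 (SE 0.12), beside 2.56 in HS alone and -0.39 in LPS alone. Nfat5 itself rose by 1.22 (SE 0.06), from between -0.18 and 0.06 to between 1.09 and 1.23. The aldo-keto reductase Akr1b8 rose by 3.03 (SE 0.09), beside 0.37 in HS alone and 1.76 in LPS alone. The chaperone Hspa4l read 1.00 to 1.09 in NS and 3.33 to 3.68 in HS+LPS, a rise of 2.48 (SE 0.11), with an interaction of 1.51 (adjusted p = 1.1e-04). The water channel Aqp1 rose by 2.84 (SE 0.17), with 0.29, not called, in HS alone, 0.87 in LPS alone and an interaction of 1.69 (adjusted p = 6.2e-04). The kinase Sgk1, which acts on ion transporters, rose by 1.61. The taurine transporter Slc6a6 was not called, with 5.03, 4.94 and 4.91 in NS and 4.93, 4.85 and 4.79 in HS+LPS, a difference of -0.10 (SE 0.05, adjusted p = 0.099), beside 0.17 in HS alone and -0.75 in LPS alone. It was called lower with normexp (-0.193), without HS+LPS replicate 1 (-0.141) and with spike-in scaling (-0.84). Of 19 genes for sodium, potassium and chloride transport that passed, of 23 listed, 11 were called higher and 6 lower (2 and 12 with spike-in scaling), with a median of 0.23. The potassium-chloride cotransporter Slc12a4 rose by 1.33.

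**Figure D3:**
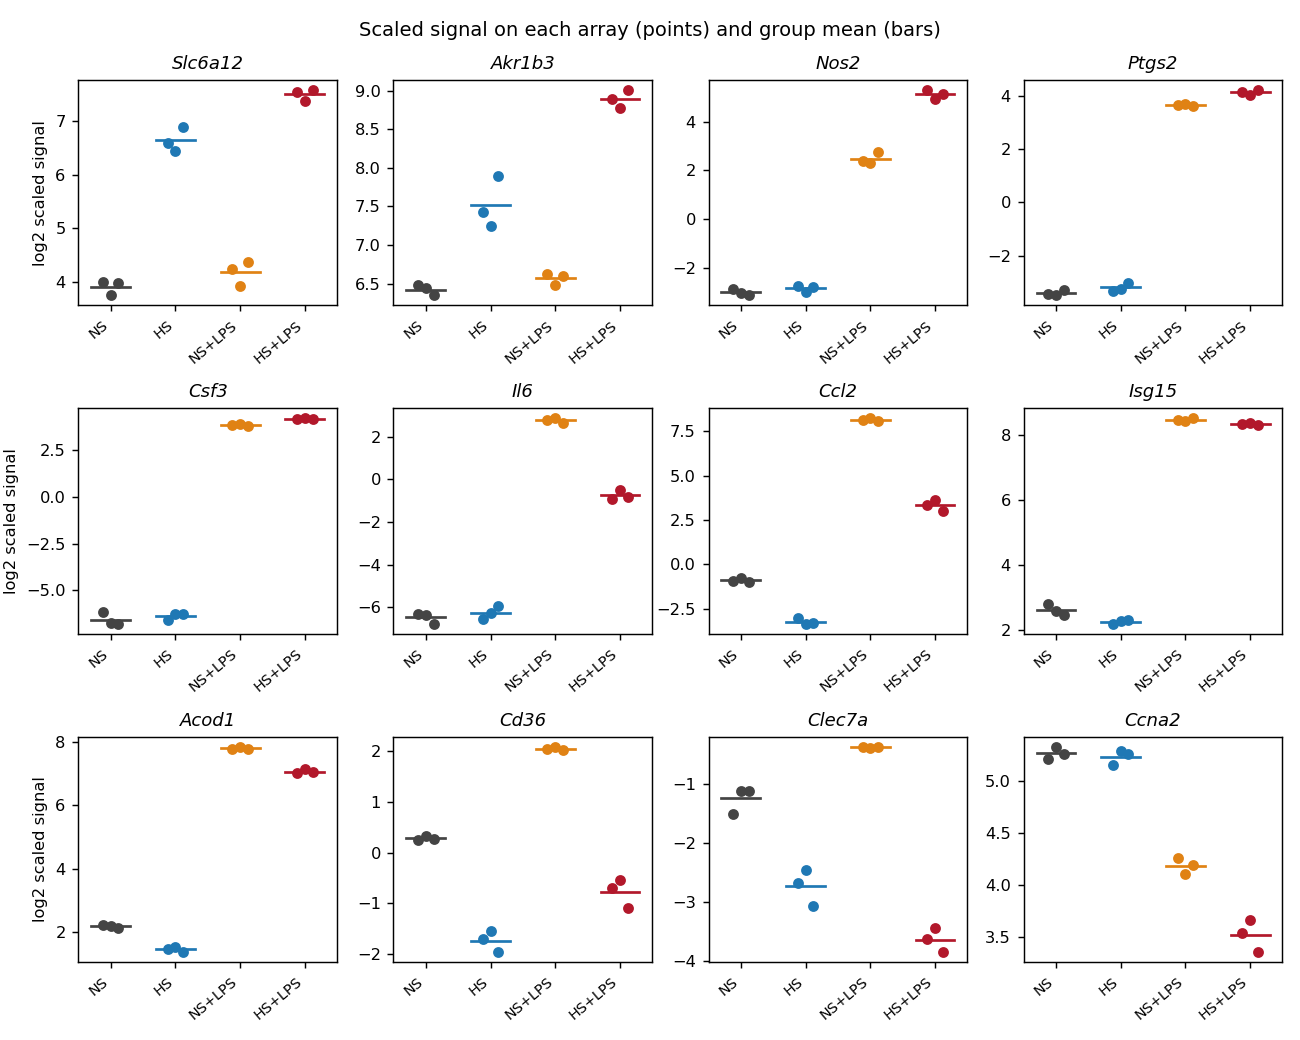
Log2 scaled signal of 12 genes on each array (points) by group, with the group mean (bar), each panel with its own vertical scale. Slc6a12 and Akr1b3 are high in HS and HS+LPS, Nos2, Ptgs2, Csf3, Il6, Ccl2, Isg15 and Acod1 are high in both LPS groups, and Clec7a and Ccna2 are lowest in HS+LPS.

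Most cytokine and chemokine genes that passed were higher. Of 26 cytokine and growth factor genes that passed, of 35 listed, 21 were called higher and 2 lower, with a median of 1.88. Spike-in scaling called 19 higher and 5 lower. Genes below background in NS could pass through the groups where they are high, and of the 17 genes above background on all 6 arrays 13 were called higher and 2 lower. Csf3, the granulocyte colony-stimulating factor, read -6.18, -6.77 and -6.78 in NS, where no array was well above background, and 4.18, 4.20 and 4.18 in HS+LPS. It was at least 506-fold higher (adjusted p = 3.16e-12), where the bound sets the HS+LPS mean against the lowest signal that stood well above background in NS, or the gene's own where that was higher. Interferon beta (Ifnb1) was at least 36.3-fold higher, Il6 at least 16.6-fold and Il1b at least 14.3-fold, none of them well above background on any NS array.

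For Il6 and Il1b, levels are given in the groups where they were measured, since NS and HS were below background. Il6 read -0.92, -0.48 and -0.83 in HS+LPS and 2.81, 2.86 and 2.63 in NS+LPS. Il1b read -0.95, -0.92 and -1.0 in HS+LPS and 1.29, 1.55 and 1.33 in NS+LPS. In both genes the HS+LPS arrays lay below all NS+LPS arrays, a difference that was not tested. Tnf read 4.33, 4.39 and 4.43 in NS and 7.26, 7.25 and 7.31 in HS+LPS, and rose 7.42-fold (2.89, SE 0.04), near its 2.69 in LPS alone. Hbegf, an EGF-family growth factor, rose by 4.0 and osteopontin (Spp1) by 4.13, and Csf2 was at least 4.90-fold higher. Il1a was not called, at 1.79, and lymphotoxin beta (Ltb) stood at -0.05, also not called.

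Of 13 chemokine genes that passed, of 23 listed, 11 were called higher and 1 lower (8 and 2 with spike-in scaling). Their median was 2.15, and 1.15 to 3.05 over the planned settings. Of the 11 above background on all 6 arrays, 10 were higher and 1 lower. Cxcl2, a neutrophil attractant whose promoter is printed above, read -2.94, -3.02 and -2.80 in NS and 5.30, 5.11 and 5.37 in HS+LPS. The rise was 289.7-fold (8.18, SE 0.23). Cxcl2 differed by 8.03 in LPS alone, and no HS array stood well above background. Ccl2, the monocyte attractant, had an interaction of -2.52 (adjusted p = 2.1e-05). It read -0.94, -0.80 and -0.98 in NS and 3.34, 3.60 and 3.00 in HS+LPS, an 18.7-fold rise (4.22, SE 0.14), beside -2.32 in HS alone and 9.06 in LPS alone. Ccl5 rose by 5.53 and Cxcl10 by 3.60, each higher on all 3 HS+LPS arrays than on any NS array. Cxcl14 was the chemokine called lower, by -2.04.

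Nearly all interferon genes were higher. Of 48 interferon-stimulated genes that passed, of 49 listed, 46 were called higher, 43 of them by at least 2-fold, and 1 was called lower. Their median was 3.40, beside -0.41 in HS alone and 3.75 in LPS alone, and 43 were called higher and 3 lower with spike-in scaling. Zbp1, a sensor of Z-form nucleic acid, read -1.15, -1.31 and -1.44 in NS and 5.26, 5.31 and 5.30 in HS+LPS, a 96.2-fold rise (6.59, SE 0.07). Irf7, the interferon regulatory factor that amplifies type I interferon, rose 88.2-fold (6.46, SE 0.10). Isg15, a ubiquitin-like modifier, rose from 2.80, 2.59 and 2.46 to 8.34, 8.35 and 8.30, by 5.71 (SE 0.07), beside 5.85 in LPS alone. Groups did not overlap for Isg15, as for 74.9% of all genes, while Zbp1 was named among genes without overlap. Rsad2, which codes for the antiviral enzyme viperin, rose 62.9-fold and Ifit3, which binds into a complex that holds foreign RNA, 70.1-fold. Ifit3 and its near-identical neighbour Ifit3b (6.23) are uncertain as separate genes, since probes of such copies can share RNA. The exceptions were Samhd1, called lower by -0.24 at its brightest probe and with probes called in both directions, and Iigp1, at 0.21 and not called.

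Genes for secreted and antimicrobial effectors were raised strongly at a few members. Nos2, the inducible nitric oxide synthase, read -2.88, -3.03 and -3.12 in NS and 5.30, 4.93 and 5.13 in HS+LPS. It rose 279-fold (8.13, SE 0.13, adjusted p = 9.89e-12, probe on chromosome 11, 78773567 to 78773626, mm9). Nos2 differed by 0.16, not called, in HS alone and by 5.48 in LPS alone, with an interaction of 2.48 (SE 0.19, adjusted p = 1.6e-05). The list of 14 genes for nitric oxide and arginine use as a whole stood at a median of 0.02, with 6 called higher and 3 lower (4 and 9 with spike-in scaling). Ornithine decarboxylase (Odc1), which makes polyamines, rose by 2.52 and Sat1, which breaks them down, by 1.74. Gch1, which makes the cofactor of nitric oxide synthase, rose by 1.46 at its brightest probe, but its probes were called in both directions.

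Ptgs2, the inducible cyclooxygenase, read -3.44, -3.49 and -3.28 in NS and 4.17, 4.04 and 4.23 in HS+LPS, 187-fold higher (7.55, SE 0.08), beside 7.09 in LPS alone. The list of prostaglandin and leukotriene genes was mixed. Of 16 that passed, of 18 listed, 4 were called higher and 8 lower (2 and 13 with spike-in scaling), including the prostaglandin D synthase Hpgds at -1.98 and the thromboxane synthase Tbxas1 at -1.51. The prostaglandin E receptor Ptger2 was called higher by 2.95, with no NS array and 2 of 3 HS+LPS arrays above background. Acod1, which makes itaconate, read 2.23, 2.21 and 2.14 in NS and 7.02, 7.13 and 7.04 in HS+LPS, a 29.3-fold rise (4.87, SE 0.05), beside -0.73 in HS alone and 5.61 in LPS alone. The siderophore-binding lipocalin Lcn2 rose 39.9-fold (5.32, SE 0.09), beside 7.77 in LPS alone. The niacin receptor Hcar2 rose by 3.08. Haptoglobin (Hp), which binds free haemoglobin, went the other way. It was well above background on all NS and HS arrays and on none of the LPS groups, and was at least 10.1-fold lower in HS+LPS. In all, 12 of 17 antimicrobial genes that passed were called higher and 4 lower (6 and 8 with spike-in scaling), among them the oxidase subunit Cybb at -0.72.

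Matrix and protease genes that passed, 8 of 20 listed, had 5 members called higher and none lower (5 and 3 with spike-in scaling). The urokinase receptor Plaur rose by 2.36. The stefin A genes, inhibitors of cysteine proteases, include the largest rise of genes above background in both groups, Cstdc4 at 8.51 (SE 0.13), and Csta3 (at least 226-fold) and Stfa2 (4.24). These are near-identical copies, so the probes may not tell them apart. Among 11 osteoclast genes that passed, 7 were called higher and 1 lower (4 and 6 with spike-in scaling). The gelatinase Mmp9 was well above background on 2 of 3 NS arrays and differed by 4.23, and the carbonic anhydrase Car2 rose by 2.96, beside 2.01 in HS alone and 1.91 in LPS alone. Tartrate-resistant acid phosphatase (Acp5) rose by 1.19, beside -0.06, not called, in HS alone and -0.51 in LPS alone, with an interaction of 1.77 (adjusted p = 5.4e-06).

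Further large rises were found in other genes. Rgs16, which shortens G-protein signals, read -2.84, -2.82 and -2.67 in NS and 5.37, 5.16 and 5.41 in HS+LPS, 272-fold higher (8.09, SE 0.10), beside 1.20 in HS alone and 6.72 in LPS alone. Uridine phosphorylase (Upp1) rose by 6.04, beside 7.88 in LPS alone. The alpha-defensin-related genes Defa-rs4 (7.03) and Defa-rs2 (6.82) differed by 2.68 and 2.63 in HS alone and by 4.65 and 4.66 in LPS alone, but they too are near-identical copies. The serotonin transporter gene Slc6a4 was at least 218-fold higher, the interferon-inducible Ifi209 at least 173-fold, the fatty acid binding protein Fabp4 at least 79.5-fold and the glutathione transferase Gstt4 at least 67.5-fold. None of these 4 genes was well above background on an NS array, and of them Slc6a4 alone was so on 3 of 3 HS arrays.

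The signalling genes upstream of these products moved less. Of 22 LPS and TLR sensing genes that passed, of 26 listed, 8 were called higher and 9 lower (2 and 19 with spike-in scaling). Their median was -0.02, and the counts lie near the 31.3% higher and 40.6% lower among all genes. The LPS co-receptor Cd14 read 6.98 on each NS array and 8.19, 8.22 and 8.13 in HS+LPS, a rise of 1.20 (SE 0.04). Tlr2, the lipopeptide receptor, fell from 5.60, 5.56 and 5.56 to 4.04, 4.23 and 4.06, by 1.47. Each of these genes had groups without overlap. The receptor Tlr4 was called lower by -0.16 (SE 0.05), the kinase Irak1 by -1.13 and the TLR-related receptor Cd180 by -1.12, while the adaptor Ticam1 (TRIF) was called higher by 1.08. For Tlr4 the call was lost with cyclic loess and without NS replicate 2 or HS+LPS replicate 1 or 3.

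Most feedback inhibitors were higher. Of 19 SOCS, DUSP and mRNA decay genes that passed, of 22 listed, 16 were called higher and 2 lower, with a median of 1.11 (10 and 6 with spike-in scaling). The phosphatase gene Dusp5 rose by 3.68 and Socs3, which blocks cytokine receptor signals, from 1.78, 1.86 and 1.84 to 4.68, 4.62 and 4.67. Cish was at least 11.6-fold higher. Of 23 NF-kB subunits and regulators that passed, 13 were called higher and 4 lower, with a median of 0.29 (4 and 13 with spike-in scaling). Traf1 rose by 2.77, the nuclear cofactor Nfkbiz by 2.62 and the inhibitor Nfkbia by 0.94, while the subunit Relb was lower by -0.73 and Rela was not called at -0.12. Of 19 immediate early genes that passed, 15 were called higher and 3 lower (9 and 6 with spike-in scaling). Ier3 rose by 4.39, Myc by 3.75 and the AP-1 member Fosl1 by 2.90, while Fos (-0.57) and Jun (-0.62) fell.

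Antigen presentation genes were more often higher than lower by count. Of 20 that passed, of 25 listed, 13 were called higher and 3 lower, with a median of 0.75. With spike-in scaling 8 were called higher and 9 lower, with a median of 0.015. Over all genes that scaling gave 1091 higher and 11262 lower, with a median of -0.822. The peptide transporter Tap1 rose by 1.87, tapasin (Tapbp) by 1.89 and the invariant chain Cd74 by 1.81. Cd274, the inhibitory ligand PD-L1, read -2.61, -2.22 and -2.44 in NS and -0.53, -0.64 and -0.79 in HS+LPS. It rose 3.41-fold (1.77, SE 0.21), with no overlap, beside -1.06 in HS alone and 2.55 in LPS alone.

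Receptors for uptake split. Of 26 phagocytic, lectin and scavenger receptor genes that passed, of 32 listed, 13 were called higher and 12 lower, 7 and 8 of them by at least 2-fold (8 and 16 with spike-in scaling). Siglec1, the sialic acid receptor of tissue macrophages, read -0.82, -0.57 and -0.74 in NS and 4.95, 4.78 and 4.73 in HS+LPS, a 46.4-fold rise (5.54, SE 0.10). Trem2, a lipid-sensing receptor, fell from 7.68, 7.53 and 7.54 to 5.22, 5.38 and 5.07, by 2.36 (SE 0.07). Neither gene's groups overlapped. The beta-glucan receptor Clec7a fell by 2.40 (SE 0.16), from -1.50, -1.11 and -1.12 to -3.63, -3.44 and -3.85, beside -1.49 in HS alone and 0.87 in LPS alone, with an interaction of -1.78 (adjusted p = 3.2e-04). The scavenger receptor Cd36 read 0.25, 0.33 and 0.27 in NS and -0.69, -0.54 and -1.10 in HS+LPS. Its net fall was 1.06 (SE 0.13), with -2.02 in HS alone and 1.76 in LPS alone. The paired receptor Pira2 was lower by -3.69, well above background on 2 of 3 HS+LPS arrays, and its near copies Pira11 (-3.25) and Gm10693 (-3.37) cannot be told apart from it with certainty. These 3 differed by -2.85, -2.82 and -2.78 in HS alone. Among adhesion genes, 10 of 16 that passed were called higher and 3 lower (5 and 8 with spike-in scaling), with the integrin Itgax lower by -2.28 and Itgal higher by 1.86.

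Of 23 myeloid transcription factor genes that passed, 10 were called higher and 7 lower, with a median of 0.08 (1 and 20 with spike-in scaling). Klf4 fell by 1.72 and Irf4 by 1.43. Gfi1, a transcriptional repressor, went up from -0.27, -0.20 and -0.17 to 2.96, 2.71 and 3.02, a rise of 3.11 (SE 0.14). It differed by 1.37 in HS alone and -0.95 in LPS alone, with an interaction of 2.69 (adjusted p = 1.6e-05). Spi1 (PU.1), the lineage factor of macrophages, was not called at 0.02.

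The largest falls among genes above background in both groups began with St6gal1, the sialyltransferase that caps glycans with sialic acid. It read 1.26, 1.29 and 1.22 in NS and -3.31, -3.56 and -3.71 in HS+LPS, 27.6-fold lower (-4.79, SE 0.18), and no NS+LPS array stood well above background. The adhesion regulator Cytip was lower by -3.85 and Cd109, a membrane-anchored protease inhibitor, by -3.47, with -3.88 and -3.03 in LPS alone. The unconventional myosin Myo1f, a bright gene, fell from 5.76, 5.95 and 5.66 to 2.59, 2.52 and 2.45. The others named by the same rule were Asb10 (-3.96), Mical1 (-3.52), Tnfsfm13 (-3.34), Gsg1 (-3.27) and the deubiquitinase Usp2 (-3.26). The transcriptional corepressor Cbfa2t3 was at least 16.2-fold lower, the guanylate cyclase activator Guca2b at least 14.6-fold, and the receptors Tnfrsf17 and Tnfrsf25 at least 11.6-fold and 7.25-fold, all well above background in NS and on no HS+LPS array. Pgm5 was at least 6.55-fold lower.

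Most glycolysis genes changed in small steps, with 2 higher by at least 2-fold, while 5 hypoxia genes were higher by at least 2-fold. Of 23 glycolysis genes that passed, of 24 listed, 20 were called higher and 2 lower with a median of 0.56, but with spike-in scaling 5 were called higher and 10 lower. With quantile normalization, and likewise with the deposited values, 17 were higher and 2 lower, with medians of 0.261 and 0.26. Phosphofructokinase Pfkp read 2.92, 2.93 and 3.04 in NS and 4.20, 4.15 and 4.24 in HS+LPS, a rise of 1.23 (SE 0.05), and the glucose transporter Slc2a1 rose by 0.97 (SE 0.05), neither with overlap. The neuronal enolase Eno2 rose by 1.16 (SE 0.10), beside -0.09, not called, in HS alone and -0.40 in LPS alone, with an interaction of 1.66 (adjusted p = 3.3e-05). Gapdh differed by 0.55 and Actb by 0.41, both called higher here, while with spike-in scaling they differed by -0.18 and -0.32. Of 17 HIF-1 and hypoxia genes that passed, 11 were called higher and 3 lower (5 and 9 with spike-in scaling), among them Adm by 2.47, Ero1a by 1.69, Egln3 by 1.37 and Bnip3 by 1.14. Egln3 and Bnip3 had interactions of 1.41 and 1.72 (adjusted p = 4.4e-05 and 1.7e-04).

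Respiratory chain genes were mostly lower by small amounts. Of 28 respiratory chain and ATP synthase genes, all of which passed, 3 were called higher and 19 lower, with a median of -0.19 beside -0.09 for all genes, and none differed by 2-fold. With spike-in scaling all 28 were lower. The ATP synthase subunit Atp5a1 read 6.67, 6.59 and 6.51 in NS and 5.94, 6.03 and 6.03 in HS+LPS, a fall of 0.59 without overlap. Of 27 genes of the TCA cycle and citrate use, 6 were called higher and 12 lower (0 and 24 with spike-in scaling), near the 40.6% lower among all genes, with a median of -0.10. The largest falls were the pyruvate dehydrogenase subunit Dlat at -0.99 and fumarase (Fh1) at -0.80. Lipid genes leaned lower, with 16 of 24 called lower and 8 higher and a median of -0.41 (4 higher and 20 lower with spike-in scaling). Angptl4, an inhibitor of lipoprotein lipase, fell by 1.76, Mylip, which degrades the LDL receptor, by 1.34, and the acyltransferase Soat1 by 1.18, while the lipid droplet gene Hilpda rose by 1.53 and Fabp4, given above at least 79.5-fold higher, was the largest change of the list. Of 25 cholesterol synthesis genes, 9 were called higher and 12 lower (1 and 18 with spike-in scaling), beside 31.3% and 40.6% among all genes. The direction of their median relative to all genes changed with normexp, with no filter and with the mean of probes.

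Cell cycle genes were lower as a list. All 27 mitosis genes that passed, of 28 listed, were called lower, 14 of them by at least 2-fold, with a median of -1.01, beside 0.08 in HS alone and -0.57 in LPS alone. Cyclin A2 (Ccna2) read 5.21, 5.33 and 5.26 in NS and 3.53, 3.66 and 3.35 in HS+LPS, 3.38-fold lower (-1.76, SE 0.08, adjusted p = 1.44e-08). It differed by -0.03, not called, in HS alone and by -1.08 in LPS alone, with an interaction of -0.64 (adjusted p = 0.0017). The proliferation marker Mki67 read 6.23, 6.36 and 6.38 in NS and 5.21, 5.06 and 4.98 in HS+LPS, a fall of 1.24 (SE 0.08). Arrays of the groups did not overlap for either. The kinesin Kif11 (-1.54), cyclin B1 (Ccnb1, -1.54) and the transcription factor Foxm1 (-1.50) fell in the same size range. Of 30 DNA replication genes that passed, 26 were called lower and 2 higher, with a median of -0.63, and 29 were lower with spike-in scaling. Cyclin E1 (Ccne1), which drives entry into S phase, was higher by 0.57.

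Of 24 p53 target and arrest genes that passed, 17 were called higher and 3 lower, with a median of 0.50 (9 and 12 with spike-in scaling). Cdkn1a, the p21 inhibitor of cyclin-dependent kinases, read 4.65, 4.62 and 4.57 in NS and 6.44, 6.34 and 6.40 in HS+LPS. It rose 3.44-fold (1.78, SE 0.05), beside -0.12, not called, in HS alone and 0.87 in LPS alone, with an interaction of 1.03 (adjusted p = 5.7e-06). Mdm2, the p53 ubiquitin ligase, rose by 1.81 with an interaction of 0.90. Plk2 rose by 2.86 and Btg1 by 2.51, while the inhibitor Cdkn2c was lower by -1.78. Of 25 cell death and survival genes that passed, 18 were called higher and 5 lower (8 and 13 with spike-in scaling). The death-promoting BH3 gene Bcl2l11 rose from -1.16, -1.15 and -1.15 to 2.25, 2.27 and 2.24, by 3.41 (SE 0.04). Mlkl, the effector of necroptosis, rose by 2.40 and Casp4 by 2.10. The BH3 gene Bmf rose by 1.85, beside 1.53 in HS alone and -0.73 in LPS alone.

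Stress programs were uneven. The haem-degrading enzyme Hmox1 read 4.69, 4.62 and 4.58 in NS and 7.50, 7.53 and 7.57 in HS+LPS, a 7.46-fold rise (2.90, SE 0.05), beside -0.34 in HS alone and 1.93 in LPS alone. Of its list of 30 redox and metal genes, 15 were called higher and 8 lower (4 and 21 with spike-in scaling), with the quinone reductase Nqo1 at least 5.29-fold higher and the regulator Nfe2l2 lower by -0.88. Of 31 amino acid and integrated stress genes, 14 were called higher and 5 lower (5 and 24 with spike-in scaling). The cystathionine lyase Cth rose by 2.49 and the cystine transporter Slc7a11 by 1.99. Of 23 unfolded protein response genes that passed, 13 were called higher and 6 lower (2 and 16 with spike-in scaling), and of 16 heat shock chaperones 10 and 4 (3 and 10 with spike-in scaling), with Dnajb4 higher by 1.62 and Hsph1 by 1.10. Cryab, called at 1.33 (adjusted p = 0.034), lost its call with no filter and when any 1 NS array or HS+LPS replicate 1 or 3 was left out (1.12 to 1.40, adjusted p 0.0593 to 0.105).

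Lysosome and ribosome genes differed little on the whole. Of 45 lysosome and autophagy genes that passed, 24 were called higher and 13 lower, with a median of 0.17 (3 and 35 with spike-in scaling). The lysosomal regulator Tfeb fell by 1.52. Of 30 ribosomal protein genes, 20 were called higher and 1 lower with a median of 0.20, but 0 were higher and all 30 lower with spike-in scaling. With quantile normalization, and likewise with the authors' deposited values, 1 was higher and 12 were lower, with medians of -0.066 and -0.067. Of 27 ribosome biogenesis genes, 7 were called higher and 9 lower (0 and 27 with spike-in scaling), beside 31.3% and 40.6% among all genes. Pes1 was lower by -1.57.

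**Figure D4:**
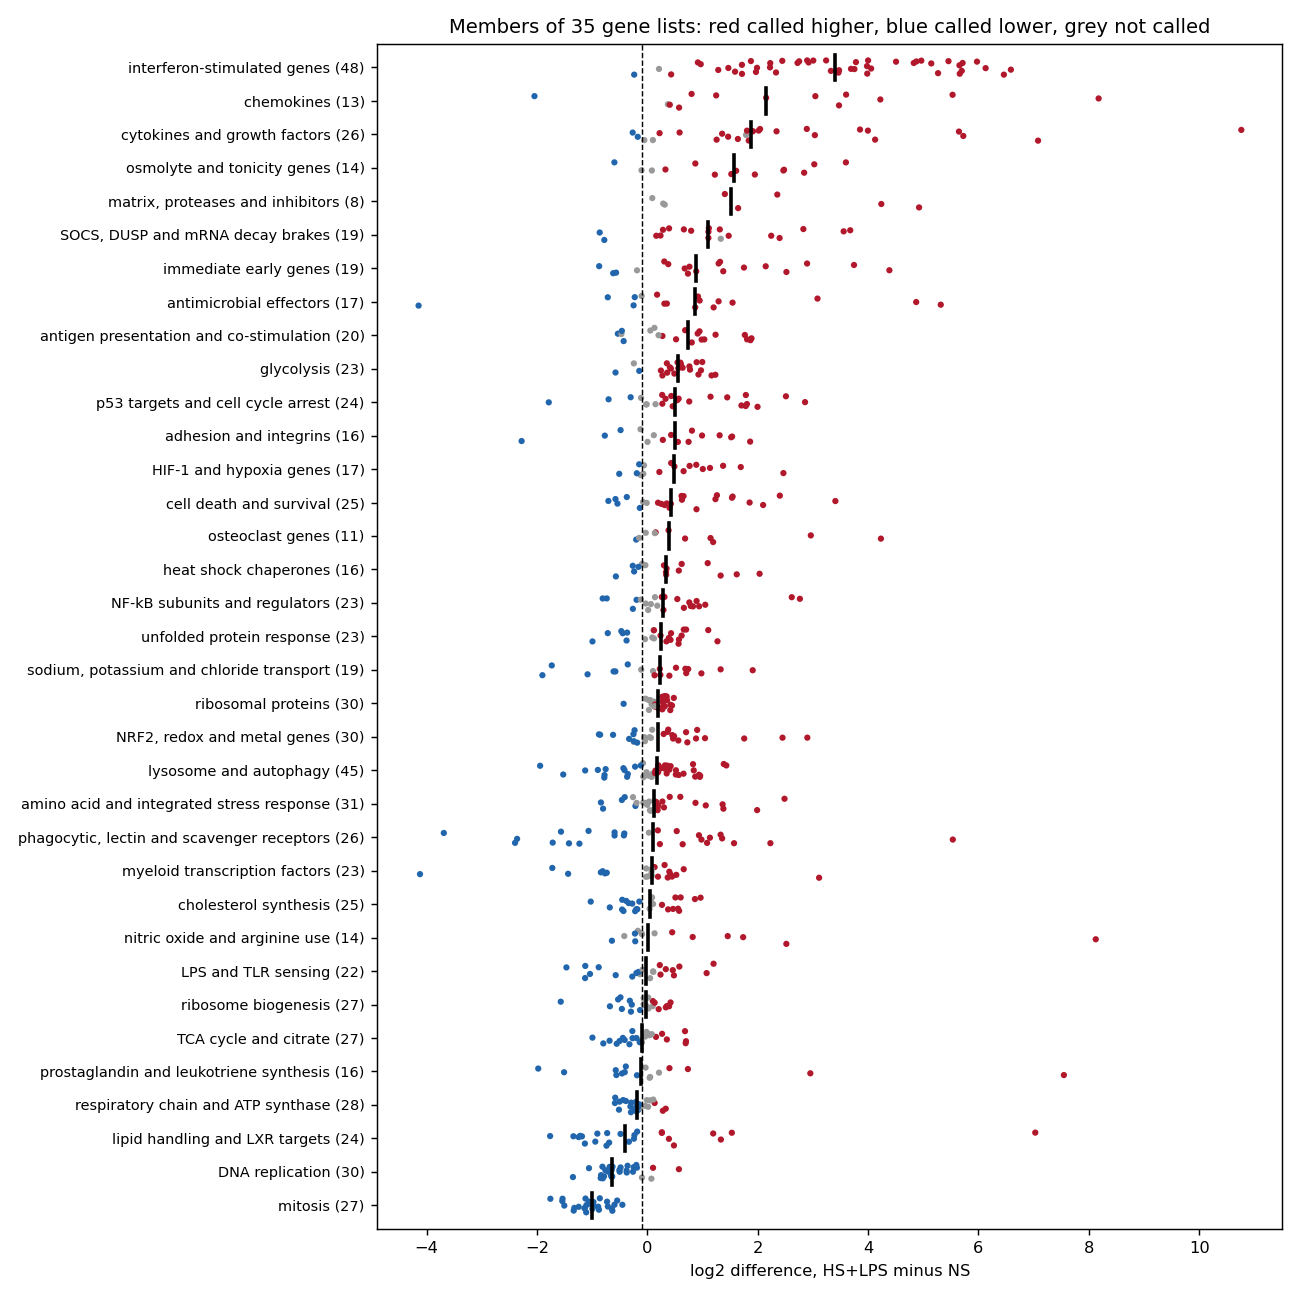
The log2 difference HS+LPS minus NS of each member that passed in 35 gene lists, red where called higher, blue where called lower and grey where not called, with the list median as a black bar and the median of all genes (-0.09) as a dashed line. Interferon-stimulated genes, chemokines, cytokines and osmolyte genes have the highest medians (3.40, 2.15, 1.88 and 1.57) and DNA replication and mitosis the lowest (-0.63 and -1.01). Numbers after list names are members that passed.

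Some genes that differed with a single treatment ended near their NS level. Among genes with a net log2 difference under 0.25 in size and no call, 3 were called with a difference of at least 2 in LPS alone and 21 with at least 1 in HS alone. Inka2 read -2.41, -2.50 and -2.32 in NS and -2.54, -2.60 and -2.43 in HS+LPS, a difference of -0.11 (SE 0.15, adjusted p = 0.532) with overlapping arrays, while no NS+LPS array stood well above background (-4.56, -5.28 and -4.96). Fndc7 differed by 0.18 net, beside -1.17 in HS alone and 2.14 in LPS alone. A p that misses the threshold does not show equal levels.

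The complement receptor C3ar1 read 1.87, 2.00 and 1.85 in NS and 1.87, 1.95 and 1.85 in HS+LPS, a difference of -0.02 (SE 0.12), beside -1.96 in HS alone and 1.16 in LPS alone. The stress gene Trib3 differed by 0.06 net, beside -1.78 in HS alone and 1.25 in LPS alone, and Atf3 by -0.19, beside -1.87 and 0.28. Arrays overlapped for C3ar1 and Trib3. The thromboxane receptor Tbxa2r differed by 0.12, beside 1.46 and -0.92, and Myh3 by -0.10, beside -1.78 and 0.30. Ptgds (-0.10) was not well above background on any HS+LPS array. With spike-in scaling all 8 genes of these paragraphs were called lower. With normexp Tbxa2r (0.41) and Ptgds (0.42) were called higher, and Atf3 was called lower with only NS and HS+LPS fitted (adjusted p = 0.037).

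In 52 genes neither single treatment was called or differed by 0.25, while the net difference was called and at least 2-fold and the interaction was called. This selection used the net contrast and the interaction, so the 8 named members are described without support from those tests. Tprg was well above background only on the 3 HS+LPS arrays, at -2.58, -2.91 and -2.24, and at least 4.67-fold higher than in NS. The other 7, Zbtb16, Cldn15, Cblc, Olfr207, Klk4, Ubqln5 and Slc18a3, were lower by -1.92 to -1.54, but none was well above background on an HS+LPS array, and their bounds were 1.02-fold to 2.31-fold. They lie at the dim end, and with normexp none of these 7 was called.

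**Figure D5:**
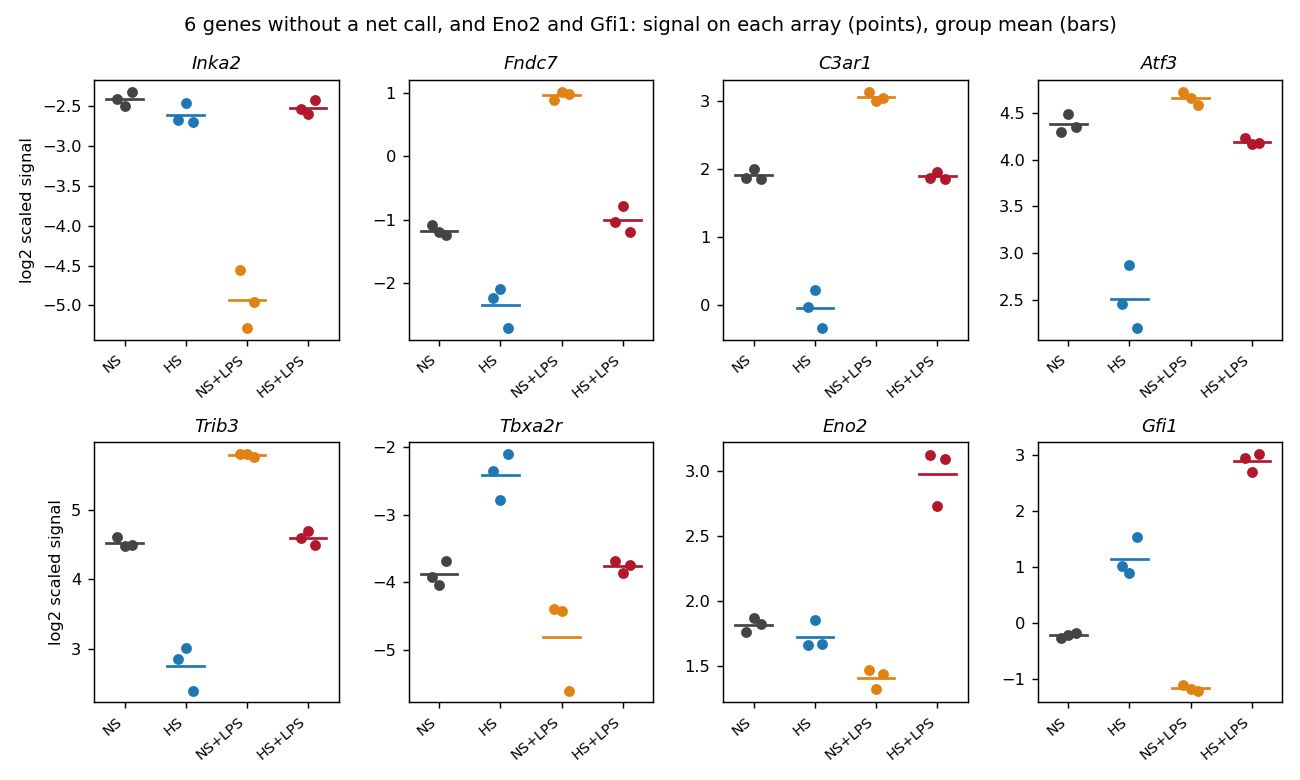
Log2 scaled signal on each array (points) and group mean (bars) of 6 genes without a net call (Inka2, Fndc7, C3ar1, Atf3, Trib3, Tbxa2r) and of Eno2 and Gfi1, each panel with its own scale. In the 6 genes the NS and HS+LPS points lie at nearly the same height while a single treatment differs from NS, as in C3ar1 by -1.96 in HS and 1.16 in NS+LPS, and in Eno2 and Gfi1 the HS+LPS points are the highest.

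The cells carried macrophage markers in both groups. Of 10 markers, 9 were well above background on all NS and all HS+LPS arrays and Mertk on none. Of the 9, 6 were called higher and 2 lower, with differences from -0.99 to 1.20, the latter for Cd14. The summed scaled signal of the markers on the linear scale was 930 to 985 in NS and 1185 to 1237 in HS+LPS. All sums here depend on the scaling. With spike-in scaling, which lowers HS+LPS by 0.73 (log2), the macrophage sums of HS+LPS would lie below those of NS. Csf1r, the receptor for macrophage colony-stimulating factor, was called higher by 0.23, but differed by -0.08 without a call under quantile normalization and was called lower under spike-in scaling (-0.50). The Csf1r call was also lost without NS replicate 2 or 3 or HS+LPS replicate 1. All 4 epithelial markers were below background on every array of both groups, as were Ncr1 and Klrb1c of NK cells. Of 5 B cell markers, Ms4a1 and Pax5 were among those above background on no array, while Cd79a and Cd79b were above it on all NS and HS+LPS arrays and neither was called (0.35 and 0.39). Of 6 T cell markers, Cd3e, Cd4 and Lck were above background on all 6 arrays, Cd3g was so on none, and the list's sum was 5.65 to 5.90 in NS and 14.8 to 15.2 in HS+LPS. Within it the kinase Lck was called higher by 1.93 and Cd3e lower by -0.30. The sum of 5 neutrophil markers was 0.563 to 0.630 in NS and 0.861 to 1.08 in HS+LPS, with Ly6g, S100a9 and Mpo above background on no array. Its other members, S100a8 (called higher by 2.48) and Elane (-0.17, not called), were above background on all arrays of both groups. The part of these markers in the results was not tested.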

How the data were processed

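RNA of 12 samples was read on 1-colour Agilent arrays, 1 array a sample. Per the file headers, the deposited intensities were made with Agilent Feature Extraction 10.7.3.1 on design 028005, with background subtracted within the array and no normalization between arrays. Probe coordinates are on mm9. The flags for spots well above background and for outliers are deposited in the same files as 0 or 1 per spot. In the deposited value table, also linear intensities, all columns have the same median, and the step behind that is not given in the sources used here. Its values gave 4280 higher and 5638 lower calls, close to the 4280 and 5636 with quantile normalization. Results with these settings are therefore not separate checks.

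From these, log2 of the processed signal minus each array's 75th percentile over non-control spots was computed. Outlier spots were dropped and spots of 1 probe averaged. Of 55681 probes, 33252 carried a gene name, 27508 through a RefSeq accession and 5744 from the files. Probes had to be well above background on each of the 3 arrays in 1 or more of the groups, and the brightest such probe stood for its gene. Among the tested genes, 518 of 3996 with several probes had probes called both ways. limma 3.58.1 (R 4.3.3) was fitted to all 12 arrays, with 8 residual degrees of freedom, 2-sided tests and Benjamini-Hochberg adjustment over 13844 genes. Errors of differences are SE, with n = 3 arrays per group, and the number of arrays limits their precision (median SE 0.066). Replicate numbers were not used to pair the samples. Deviations of same-numbered NS and HS+LPS arrays correlated at -0.014, -0.028 and 0.023, beside -0.024 to 0.038 for differently numbered ones. Low correlations do not show that the cultures were unpaired. On simulated data for this comparison, 72.5% of 200 changes of 0.5 and 92% of 200 changes of 1 (log2) among 13844 genes were recovered. There were 3 and 11 false calls. The simulation drew independent noise and changed 200 genes only, without a slide or scan-day effect. In the data 71.8% of genes were called, so these rates need not carry over.

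Genes were named by rule: the 12 largest rises and falls above background in both groups without overlap, the 6 largest bounds each way, up to 4 called members per list with the largest differences, 28 index genes (26 tested, Il10 and Arg1 did not pass), and genes without a net call or with a net call alone. Sgk1, Hbegf, Spp1, Csf2, Il1a, Ltb, Cxcl14, Samhd1, Iigp1, Cybb, Ticam1, Relb, Rela, Fos, Jun, Spi1, Soat1, Ccne1, Cdkn2c, Nfe2l2 and the markers of other cell types were named after their values were seen. Members and lists were chosen with earlier results of these data known. Plots used Python 3.11.15 and matplotlib 3.10.9. Some genes named by the rule are not reported here.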

Additional observations from a re-analysis of the deposited data

Results flagged for a closer look

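The salt difference in the presence of LPS was set against that in its absence (the interaction, log2, limma). It was called for 36.2% of all genes tested. Among 198 named genes it was called for 111, a count raised by selection, since the interaction or single-treatment differences chose some of them, including Tprg, Inka2 and 4930438A08Rik. For 12 it was at least 4-fold. It was below 0 for the cytokine genes Il6 (-3.72) and Il1b (-2.62), the chemokine gene Ccl2 (-2.52), the antimicrobial gene Lcn2 (-2.32), the nucleoside enzyme Upp1 (-2.06) and the transcript 4930438A08Rik (-2.66). It was above 0 for Cxcl2 (2.02), Nos2 (2.48), St6gal1 (2.60), Inka2 (2.61), Gfi1 (2.69) and Tprg (3.76). No NS and no HS array stood well above background for Il6, Il1b, Tprg and 4930438A08Rik, no HS array for Cxcl2, and no NS+LPS array for Tprg, St6gal1 and Inka2, so their interactions are no bounds.

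Probes without a gene name gave signal outside the gene comparison. Of 8168 such probes tested, 1526 were called higher and 2838 lower in HS+LPS than in NS, with differences from 6.73 to -3.97.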

How the results depend on the processing

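Over 19 planned settings, values of named genes kept their direction and side of the threshold in 3686 cases, lost a call in 28, gained one in 5 and reversed in 7. Lower calls of at least 2-fold went from 1047 to 554 with normexp and 683 when all 6 arrays had to be above background. Without a filter 7872 genes were higher, 57.9% of calls, and the median of all genes moved by 0.20, against 0.10 with cyclic loess (52.1% higher). Spike-in scaling, chosen after seeing the data, gave 1091 higher and 11262 lower (488 and 5080 at least 2-fold), and with all 6 arrays above background 948 and 10215 (352 and 4125). Of the named genes called higher, 108 remained higher under it. Rps14, Rplp0, Rpl35, Csf1r and Actb turned to lower calls. Reversed with normexp were Stk39 (0.103), Ptgds (0.418), Zbtb16 (0.149), Cblc (0.074) and Klk4 (0.166), and with quantile normalization and the deposited table Csf1r (-0.081 and -0.080). List medians relative to all genes stayed within their array-to-array spread in 529 cases, moved beyond it in 130 and reversed in 6. They reversed for cholesterol synthesis with normexp (-0.033), no filter (-0.064) and the mean of probes (-0.037), for nitric oxide (-0.088) and myeloid factors (-0.027) without a filter, and for phagocytic receptors (-0.077) with the mean of probes. The cause was not tested. Leaving out 1 array gave 4055 to 4251 higher and 5253 to 5467 lower calls (1075 to 1113 and 1013 to 1090 at least 2-fold). With the mean of probes Hif1a (0.131) and Stard4 (-0.003) lost their calls. The replicate block gave 4231 higher and 5543 lower calls, and slide as a random block 4371 and 5673. No array of HS+LPS shared a slide with another group, so there is no value within a slide. Low signal limits the dim genes: a difference printed against a group below background is no bound.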
